A study of Mus musculus with 20 samples.

Results

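A set of 10 genes that mark granulosa and cumulus cells, the somatic cells around the mouse oocyte, was followed through 20 RNA-seq libraries of oocytes and early embryos. The genes were Inha, Inhba, Inhbb, Amh, Amhr2, Fshr, Foxl2, Cyp19a1, Gja1 and Kitl. All 10 were found by symbol among the 23309 gene symbols measured, each at a single locus. Granulosa cells feed and signal to the growing oocyte, and the cumulus cells are those that stay closest to it. They answer follicle-stimulating hormone, make oestrogen, and secrete inhibins, activins and anti-Müllerian hormone, which act through receptors of the TGF-beta family. Oocytes are stripped of these cells when they are collected, so the genes are commonly read as a check on somatic cells carried into an oocyte sample. Some of them are also transcribed by embryos.

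The Btg4 experiment held 16 libraries, 2 for each group: germinal vesicle (GV) oocytes labelled Btg4-/-, wild-type GV oocytes, metaphase II (MII) oocytes labelled Btg4-/-, wild-type MII oocytes, zygotes labelled Btg4-/-, wild-type zygotes, 2-cell embryos labelled Btg4-/- and wild-type 2-cell embryos. BTG4 is an adaptor of the CCR4-NOT deadenylase that removes maternal mRNA. A second experiment held 1 library each of GV oocytes labelled Erk-/-, their wild type, MII oocytes labelled Erk-/- and their wild type. All samples were labelled as ICR mice. Females were 21 to 23 days old and had been given PMSG and hCG, hormones that drive follicle growth and ovulation, and embryos came from matings. Per the labels' protocols, 60 oocytes or embryos were pooled for a sample. The design text words each Erk library as an oocyte, so the pool size there is less sure. The labels name neither the Btg4 allele nor, for Erk-/-, which Erk gene was deleted or by what Cre. That shared protocol names wild-type and Btg4-/- mice and does not mention Erk-/- mice. No label says that replicates came from separate females, so the spread that p-values rest on may be technical.

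Levels are FPKM, fragments scaled by transcript length and by the mapped fragments of the library, as the authors estimated them. From the width of the authors' intervals, about 2760000 to 5040000 fragments lay behind each library of the Btg4 experiment and 5860000 to 8260000 behind each Erk library. Replicates correlated at a Pearson r of 0.942 to 0.98 across genes on the log2(FPKM + 1) scale. Btg4 itself checked the labels in part. It was lower in the libraries labelled Btg4-/- at MII (172 and 191 FPKM, against 415 and 406 in wild type) and in zygotes (139 and 164, against 610 and 559). It was not lower at GV (1980 and 1881, against 1450 and 1673), and in 2-cell embryos its level was 3514 and 3632 FPKM with the label, above the 1147 and 964 FPKM of wild type. Genotypes are therefore given as labelled, and every direction below is between labelled groups. A panel of 12 oocyte markers summed to between 2987 and 12282 FPKM in the Btg4 experiment.

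In the Btg4 experiment the 10 markers were most abundant at GV. All 10 had a level above 0 in each of the 4 GV libraries. Their sum was 85.3 and 91.5 FPKM in the GV libraries labelled Btg4-/- and 75.4 and 82.3 FPKM in wild-type GV libraries. At MII the sum was 2.19 and 0.904 FPKM with the label Btg4-/- and 8.42 and 4.47 FPKM in wild type. In zygotes it was 1.66 and 0.921 FPKM against 3.86 and 3.79 FPKM in wild type. In 2-cell embryos it was 2.68 and 1.24 FPKM against 15.5 and 18.5 FPKM in wild type. The 2 genotypes overlapped in none of the 3 later stages, with wild type higher in each. Inha and Inhba made up most of the GV sum, and Amhr2 and Gja1 most of the wild-type 2-cell sum. In wild type, Cyp19a1 alone held 4.19 and 3.24 FPKM at MII and 3.70 and 3.39 FPKM in zygotes. The sums at MII and in zygotes thus lean on 1 gene and do not describe the set. Set against the 12 oocyte markers, the members' sum was 0.694% and 0.852% in GV libraries labelled Btg4-/- and 0.691% and 0.816% in wild-type GV libraries. In 2-cell embryos it was 0.0263% and 0.0126% with the label Btg4-/- and 0.503% and 0.62% in wild type. The oocyte markers themselves summed there to 10186 and 9831 FPKM with the label Btg4-/- and 3085 and 2987 FPKM in wild type. In pooled samples fewer cells of a type and less RNA per cell cannot be told apart, nor can RNA of adhering cells be told from RNA of the oocyte.

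**Figure D1:**
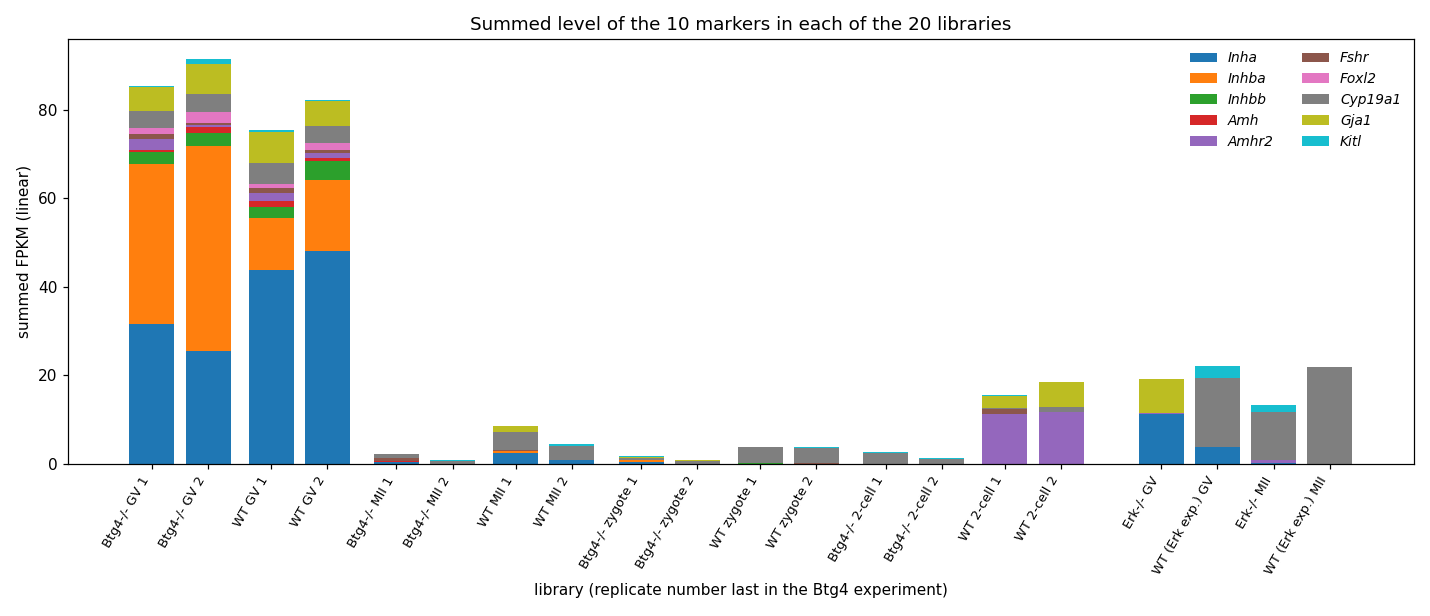
Summed FPKM of the 10 markers (vertical axis, linear, from 0) in each of the 20 libraries (horizontal axis), with a coloured segment for each gene. The 4 GV libraries of the Btg4 experiment stand between 75.4 and 91.5 FPKM, and the wild-type 2-cell libraries, at 15.5 and 18.5, consist mostly of Amhr2 and Gja1.

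Inha and Inhba were the most abundant members at GV in the Btg4 experiment. Between genotypes their GV levels differed in opposite directions, and the Inhba difference alone was called. Inha encodes the alpha subunit of inhibin. Its mm9 locus in the files was chr1:75503651-75506929. Inhba encodes the beta-A subunit, which forms activin A as a homodimer and inhibin A with the alpha subunit, and its locus was chr13:16106307-16119044. The 250 bases before each start are shown, from RefSeq on GRCm38.p6, plus strand, a build other than that of the files, since these 2 subunit genes were the most abundant members. The capitals mark TATAAA, and the coordinates are chr1:75507359-75507608 for Inha and chr13:16011601-16011850 for Inhba.
Inha: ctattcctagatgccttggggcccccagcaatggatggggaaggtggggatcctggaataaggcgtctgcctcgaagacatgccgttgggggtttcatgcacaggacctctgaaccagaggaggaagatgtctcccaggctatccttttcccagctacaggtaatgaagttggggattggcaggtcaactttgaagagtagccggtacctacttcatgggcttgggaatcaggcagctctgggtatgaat
Inhba: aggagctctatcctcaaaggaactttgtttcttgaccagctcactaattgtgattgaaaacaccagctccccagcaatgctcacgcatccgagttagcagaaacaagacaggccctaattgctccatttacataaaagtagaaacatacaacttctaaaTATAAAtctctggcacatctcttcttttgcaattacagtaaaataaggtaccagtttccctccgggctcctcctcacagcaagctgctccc
In all, 5 motifs were searched on both strands in these windows: TATAAA, the cyclic AMP response element TGACGTCA, the forkhead word GTAAACA, the NR5A word TCAAGGNCA and its shorter core CAAGGNCA. The core overlaps the longer word and was added after the longer word had been seen to match none of the members. TATAAA began at position -91 from the start of Inhba and is in 12.4% of 32851 promoters of the same length. None of the 5 words is in the Inha window. Its start is the one RefSeq lists and was not checked against the first exon of the gene. The window may lie within the transcribed gene, so the lack of a match does not describe the Inha promoter.

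Inhba was higher in GV oocytes labelled Btg4-/-. It stood at 36.2 and 46.5 FPKM there, against 11.9 and 16.02 FPKM in wild-type GV oocytes. The lowest labelled Btg4-/- library was above the highest wild-type one, and the authors' intervals of the groups did not overlap either. The difference was 1.51 ± 0.26 on the log2(FPKM + 1) scale (SE; limma, Benjamini-Hochberg adjusted p = 0.00505 over 12311 genes), with the median of all genes tested at -0.12. That scale understates changes of low genes. Inhba was the sole member called at GV of the 8 tested, and 1.45% of all genes tested were called higher and 6.46% lower there. The call was lost with a pseudocount of 0.1 (adjusted p = 0.316) and without wild-type GV replicate 1 (adjusted p = 0.0544).

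Inha stood at 31.5 and 25.4 FPKM in GV oocytes labelled Btg4-/-, against 43.7 and 48.0 FPKM in wild type. Its groups did not overlap either, with wild type higher, but the difference of -0.68 ± 0.32 did not pass (limma adjusted p = 0.242). It passed where GV libraries were fitted without the other stages (adjusted p = 0.0316). Within a library the ratio of Inhba to Inha, both per length, was 1.15 and 1.83 in GV oocytes labelled Btg4-/- and 0.272 and 0.334 in wild type. Inhba was thus above Inha in both libraries labelled Btg4-/- and below it in both wild-type ones. The ratio was not tested.

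The 6 other tested members did not pass between genotypes at GV. Inhbb, the beta-B subunit (mm9 chr1:121312041-121318825), had 2.68 and 2.83 FPKM in GV oocytes labelled Btg4-/- and 2.42 and 4.39 FPKM in wild type. Foxl2, the forkhead factor that maintains granulosa identity (chr9:98856025-98858545), had 1.26 and 2.44 FPKM, against 0.816 and 1.63 FPKM in wild type. Both genes overlapped between genotypes. Amh, the hormone that restrains follicle recruitment (chr10:80267992-80270393), had 0.532 and 1.37 FPKM, against 1.43 and 0.691 FPKM in wild type. Its receptor gene Amhr2 (chr15:102275797-102285070) had 2.45 and 0.523 FPKM, against 1.74 and 1.01 FPKM in wild type. These 2 genes also overlapped, and the intervals of Amhr2 in the 2 GV libraries labelled Btg4-/- lay apart, so that replicates differed more than the genotypes did. Amh lies 325 bases from Sf3a2 and Foxl2 296 bases from Foxl2os, and the counting is not known to have used strand.

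Cyp19a1 encodes aromatase, which makes oestrogen (mm9 chr9:54013743-54041249). Its GV levels were 3.94 and 4.20 FPKM in oocytes labelled Btg4-/- and 4.71 and 3.71 FPKM in wild type. Gja1 encodes connexin 43, the gap junction protein between granulosa cells (chr10:56097105-56110225), and had 5.29 and 6.71 FPKM, against 7.03 and 5.79 FPKM in wild type. Both overlapped. Fshr, the receptor for follicle-stimulating hormone (chr17:89384291-89600015), had 1.17 and 0.422 FPKM, against 1.14 and 0.816 FPKM in wild type. Kitl, the Kit ligand that granulosa cells present to the oocyte (chr10:99478457-99563046), had 0.222 and 1.07 FPKM, against 0.467 and 0.191 FPKM in wild type. Fshr and Kitl had a mean under 1 FPKM in every group, which is the filter used, and were not tested. Within the pair of GV libraries labelled Btg4-/-, 3 members were higher in library 1 and 7 in library 2, and in the wild-type pair 6 were higher in library 1 and 4 in library 2. The authors' intervals lay apart for 2 of them in the labelled pair, Amhr2 and Kitl, and for 1 in the wild-type pair, Inhbb. Most of these orders thus lie within the intervals, and whether the members moved together was not tested.

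**Figure D2:**
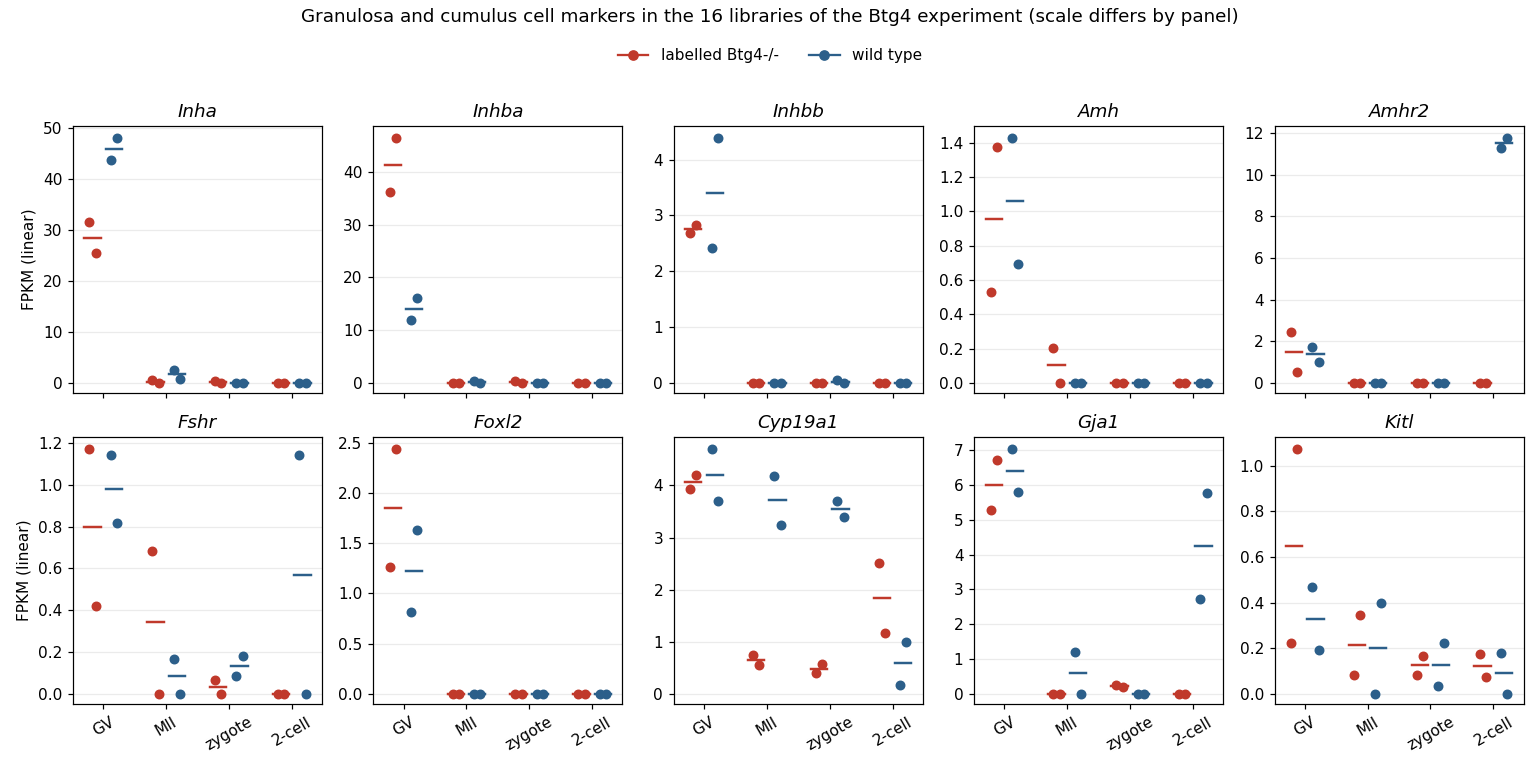
FPKM of each marker (vertical axis, linear, with its own scale in each panel) by stage (horizontal axis), with a point for each library, a bar for the group mean, red for the libraries labelled Btg4-/- and blue for wild type. Inhba separates the genotypes at GV, Cyp19a1 at MII and in zygotes, and Amhr2 and Gja1 at the 2-cell stage.

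Between GV and MII, 8 of the 8 tested members fell in oocytes labelled Btg4-/- and 7 of 8 fell in wild-type oocytes, where Cyp19a1 was the exception. Of all genes tested, 18.1% fell and 27.3% rose at this step with the label Btg4-/-, and 28.5% fell and 25.2% rose in wild type. The median change of the tested members was -1.76 with the label Btg4-/- and -1.67 in wild type, against 0.14 and -0.02 over all genes. These counts cannot stand as support, since Inhba, Inhbb and Foxl2 passed the filter through the GV groups alone and Amh through wild-type GV alone, and such genes had to differ. The median of a tested set is bound in the same way. With the label Btg4-/-, Amh did not pass without GV replicate 2 (limma adjusted p = 0.14) or MII replicate 2 (0.0938), nor Amhr2 without GV replicate 1 (0.0699).

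At MII, Inha had 0.470 and 0 FPKM in oocytes labelled Btg4-/- and 2.46 and 0.834 FPKM in wild type. Inhba was listed at 0 in both libraries labelled Btg4-/- and at 0.413 and 0 FPKM in wild type, so that the genotypes overlapped. Gja1 was listed at 0 in both libraries labelled Btg4-/- and at 1.19 and 0 FPKM in wild type. In wild-type MII oocytes, library 1 was thus above library 2 for all 3 genes. Inhbb, Foxl2 and Amhr2 were listed at 0 in all 4 MII libraries, and Amh had 0.202 FPKM in 1 library labelled Btg4-/- and 0 in the other 3. The changes between MII and GV were -4.60 ± 0.32 for Inha with the label Btg4-/- (limma adjusted p = 1.15e-07) and -4.22 ± 0.32 in wild type (adjusted p = 2.09e-07). Where Inhba, Inhbb, Foxl2 or Amhr2 is listed at 0, no fold is given. Inhba fell further in oocytes labelled Btg4-/-, from a higher GV level, with a difference of the 2 steps of -1.75 ± 0.37 (limma adjusted p = 0.0021, and 0.084 with a pseudocount of 0.1). As Inhba was at or near 0 at MII in both genotypes, this value largely repeats its GV difference and is no separate result. Inhba and Cyp19a1 were the 2 members lower in this test, in which 26.5% of all genes were called higher and 16% lower.

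At MII, 2 members were lower in oocytes labelled Btg4-/-, Inha and Cyp19a1, of 8 tested, where 29.1% of all genes were called higher and 23.3% lower. A share of 2 in 8 is close to that background. For Inha the difference was -1.06 ± 0.32 (limma adjusted p = 0.0137). It did not pass without replicate 2 labelled Btg4-/- (adjusted p = 0.122), without wild-type replicate 1 (adjusted p = 0.16) or where MII was fitted alone (adjusted p = 0.0603). Globin RNA differed in the same direction at MII. Of 11 blood cell markers 4 were tested, of which 2, Hba-a1 and Hbb-b1, were lower with the label Btg4-/- and 2 were not called. By its changes between groups, Hbb-b1 passed the filter through wild-type MII alone. Its call was thus bound by the filter, and the count of 2 cannot stand as support. The 11 blood markers summed to 1.02 to 2.08 FPKM in the libraries labelled Btg4-/- and 50.3 to 84.96 FPKM in wild type, mostly the alpha globin gene Hba-a1 (1.15 and 0 FPKM, against 66.1 and 44.5 FPKM). The part of blood cell RNA in the Inha difference was not tested. The Gja1 difference at MII did not pass (-0.56 ± 0.35, limma adjusted p = 0.201), but did without wild-type replicate 2, the library at 0 (adjusted p = 0.0177).

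Cyp19a1 did not follow the other members. Its MII levels were 0.749 and 0.559 FPKM in oocytes labelled Btg4-/- and 4.19 and 3.24 FPKM in wild type. In zygotes they were 0.391 and 0.571 FPKM, against 3.70 and 3.39 FPKM in wild type. The groups did not overlap at either stage, though they had overlapped at GV. The wild-type MII step was -0.14 ± 0.30 (limma adjusted p = 0.736). The differences between genotypes were -1.51 ± 0.30 at MII (limma adjusted p = 0.000979) and -1.62 ± 0.30 in zygotes (adjusted p = 0.00069), and both calls held in every alternative in which the gene was tested. The difference of the MII step was -1.47 ± 0.43 (limma adjusted p = 0.014), and without wild-type GV replicate 2 the adjusted p was 0.0526. In 2-cell embryos the order turned round, with 2.51 and 1.17 FPKM in embryos labelled Btg4-/- and 0.175 and 0.994 FPKM in wild type. The wild-type step from zygote to 2-cell was -1.57 ± 0.30 (limma adjusted p = 0.000658), and the difference of the steps between genotypes was 2.47 ± 0.43 (adjusted p = 0.000423). The 2-cell difference of 0.85 ± 0.30 (limma adjusted p = 0.0333) is less firm, with an adjusted p of 0.236 without replicate 1 labelled Btg4-/- and 0.233 without wild-type replicate 1.

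In zygotes Cyp19a1 was the sole member called between genotypes, lower with the label Btg4-/-, of 8 tested, where 24.4% of all genes were higher and 23.3% lower. Inha had 0.450 and 0 FPKM in zygotes labelled Btg4-/- and was listed at 0 in both wild-type libraries. Gja1 had 0.243 and 0.183 FPKM, against 0 and 0 in wild type. Levels this low rest on few fragments. Inha was lower in wild-type zygotes than at MII (limma adjusted p = 0.00787, and 0.0804 without wild-type MII replicate 1), where 8.0% of all genes fell and 20.5% rose. With the label Btg4-/- no member was called at that step by limma and none had an unadjusted p under 0.05, where 10.3% of all genes rose and 5.38% fell.

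Amhr2 and Gja1 reappeared in wild-type 2-cell embryos. Amhr2 was listed at 0 in both 2-cell libraries labelled Btg4-/-, against 11.3 and 11.8 FPKM in wild type, where the authors' intervals ran from 8.53 to 13.9 and from 8.54 to 14.7. Gja1 was listed at 0 in both libraries labelled Btg4-/-, against 2.74 and 5.75 FPKM in wild type. Wild-type Amhr2 was thus well above its level at GV, while the 2 wild-type libraries differed for Gja1 beyond their intervals. The difference between genotypes passed for Amhr2 (limma adjusted p = 9.21e-07) and for Gja1 (adjusted p = 0.000129), and both calls held in every alternative run. At this stage 2 of the 8 tested members were lower with the label Btg4-/- and 1, Cyp19a1, was higher, where 22.6% of all genes were higher and 26.4% lower. The members' share is near that background.

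Both genes had been listed at 0 in wild-type zygotes, and their rise to the 2-cell stage passed (limma adjusted p = 6.04e-07 for Amhr2 and 9.18e-05 for Gja1). At that step 27.1% of all genes rose and 30.2% fell in wild type. With the label Btg4-/-, Cyp19a1 was the sole member called at that step, higher by 0.90 ± 0.30 (limma adjusted p = 0.0269), where 18.3% of all genes rose and 28.2% fell. That call was lost without either zygote replicate labelled Btg4-/- (adjusted p = 0.124 without replicate 1 and 0.065 without replicate 2) and without 2-cell replicate 1 (0.198). The steps themselves differed between genotypes for Amhr2 (adjusted p = 2.37e-05), Gja1 (0.000863) and Cyp19a1, where 22.2% of all genes were called higher and 25.9% lower. None of the 8 tested members differed between genotypes in the step from MII to zygote by limma, where 4.95% were higher and 7.25% lower and 1 member, Inha, had an unadjusted p under 0.05. Without wild-type MII replicate 2, Inha passed that test (adjusted p = 0.0238) and Gja1 was lower in wild-type zygotes than at MII (adjusted p = 0.0368).

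Fshr and Kitl stayed near the detection limit after GV. Fshr had 0.685 and 0 FPKM in MII oocytes labelled Btg4-/-, against 0.169 and 0 FPKM in wild type, and 0.0655 and 0 FPKM in labelled zygotes, against 0.0865 and 0.180 FPKM in wild type. In 2-cell embryos it was listed at 0 in both libraries labelled Btg4-/-, against 1.14 and 0 FPKM in wild type, so the wild-type value is that of a single library. Fshr entered the test where the library that lowered its group mean was left out, and without wild-type 2-cell replicate 2 the 2-cell difference had an adjusted p of 0.0179 and the wild-type 2-cell step 0.0321. Its wild-type MII step then passed as well (adjusted p = 0.0161, and 0.0493 without GV replicate 2 labelled Btg4-/-), while with all libraries and no filter it did not (limma adjusted p = 0.0735). Kitl was between 0 and 0.398 FPKM in all 12 libraries after GV, with both genotypes overlapping at each stage. Its MII step with the label Btg4-/- passed without GV replicate 1 (adjusted p = 0.0426).

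Inha, Inhba, Inhbb, Amh and Foxl2 were listed at 0 in all 4 libraries of 2-cell embryos. Other granulosa genes differed among themselves at this stage. The comparison list of 28 such genes summed to 38.0 and 39.0 FPKM in 2-cell embryos labelled Btg4-/- and 68.8 and 74.3 FPKM in wild type. Gata4, Nr5a2 and Tnfaip6 of that list were higher in wild-type 2-cell embryos than in wild-type zygotes and lower with the label Btg4-/- than in wild type at the 2-cell stage. Esr2 of that list was called the other way in both comparisons. Nppc was also higher with the label Btg4-/- than in wild type at the 2-cell stage. By their changes between groups, Tnfaip6 passed the filter through wild-type 2-cell embryos alone and Nppc through labelled 2-cell embryos alone. The calls of these genes were thus bound by the filter and cannot stand as support. Fst and Hsd17b1 of the same list were at 0 in both wild-type 2-cell libraries but for 0.171 FPKM of Hsd17b1 in 1 of them. The part of somatic RNA in the 2-cell levels of Amhr2 and Gja1 was not tested. Neighbouring loci were looked at for Amhr2. Prr13, 4530 bases away, had 40.0 and 22.9 FPKM in 2-cell embryos labelled Btg4-/- and 120 and 108 FPKM in wild type. Sp1, 8962 bases away, had 4.16 and 4.94 FPKM, against 6.92 and 4.55 FPKM in wild type, so that Prr13 separated the genotypes and Sp1 did not. No locus overlapped Amhr2 in the files. Of 17 measured genes known to be transcribed when the 2-cell genome is activated, 14 were tested. At the 2-cell stage 13 were lower with the label Btg4-/- and 1, Hspa8, was higher, where 26.4% of all genes were lower and 22.6% higher. A mean of 1 FPKM was reached by 14 of the 17 in wild-type 2-cell embryos but by 3 in wild-type zygotes. Many thus passed the filter where they are high, so these counts cannot stand as support. The median difference of the 14 was -3.38, against -0.05 over all genes, and is bound in the same way.

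The windows before the Amhr2 and Gja1 starts are shown because the pair came up together at the 2-cell stage. They lie at chr15:102445117-102445366 and chr10:56377050-56377299, from RefSeq on GRCm38.p6, plus strand, and the capitals mark the core CAAGGNCA.
Amhr2: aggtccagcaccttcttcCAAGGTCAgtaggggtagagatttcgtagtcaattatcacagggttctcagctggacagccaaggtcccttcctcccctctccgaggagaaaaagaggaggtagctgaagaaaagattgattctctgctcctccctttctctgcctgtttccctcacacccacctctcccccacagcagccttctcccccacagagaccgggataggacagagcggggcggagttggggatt
Gja1: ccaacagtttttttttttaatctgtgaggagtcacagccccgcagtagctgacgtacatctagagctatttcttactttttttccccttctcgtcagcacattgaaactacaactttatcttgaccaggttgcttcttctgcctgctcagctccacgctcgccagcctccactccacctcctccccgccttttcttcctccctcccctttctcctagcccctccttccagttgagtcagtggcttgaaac
The core began at position -232 from the Amhr2 start, on the plus strand, and is in 5.53% of the 32851 promoters. None of the 5 words searched is in the Gja1 window, and the pair has none of them in common. Of the words with no match in these 4 windows, TGACGTCA is in 1.55% of promoters, GTAAACA in 3.17% and TCAAGGNCA in 1.39%.

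**Figure D3:**
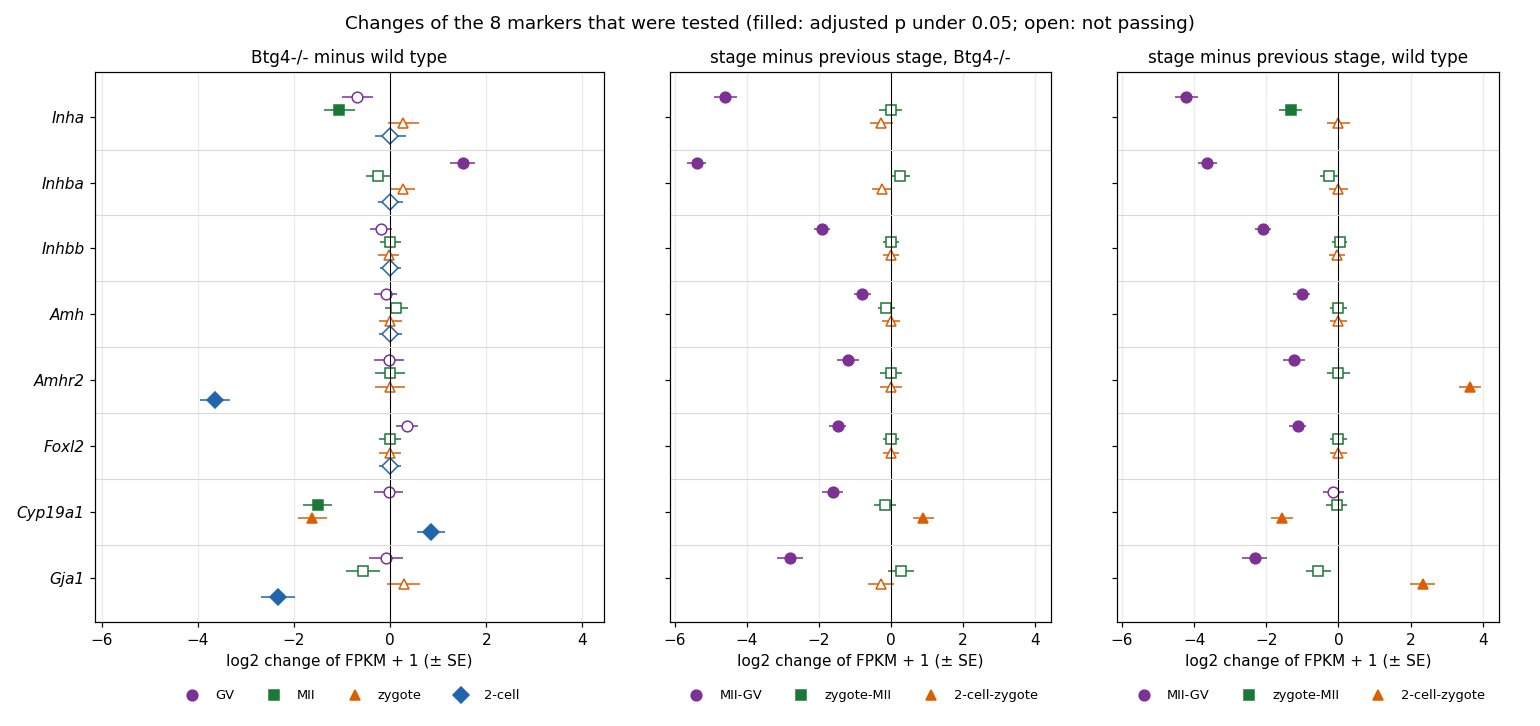
Change on the log2(FPKM + 1) scale (horizontal axis, with its standard error) for the 8 tested markers (rows), between genotypes at each stage on the left and between consecutive stages in each genotype in the middle and on the right. Filled symbols passed an adjusted p of 0.05. The MII step is negative for nearly all genes in both genotypes, and the positive 2-cell steps of Amhr2 and Gja1 stand in the wild-type panel alone.

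Genes whose group means followed a member most closely over the 8 groups were listed for the 4 members that reached 5 FPKM, with r as a description over means of libraries that share depth and stage. For Inha they were Snx14 (r = 0.991), Gchfr (0.988) and Fst (0.987). Fst encodes follistatin, which binds activin, and averaged 9.65 FPKM in GV oocytes labelled Btg4-/- and 8.03 FPKM in wild type. For Inhba they were Slc16a9, Apoc3 and Cst12 (all at 0.998 or above). The genes listed for Inha and Inhba reached a mean of 1 FPKM at GV alone. They passed the filter where these members are high, so a high r was largely set in advance. Cst12 averaged 3.59 FPKM in GV oocytes labelled Btg4-/- and 1.62 FPKM in wild type. For Amhr2 they were S100a13, Zc3hc1 and Ccne1 (0.997 or above). S100a13 reached a mean of 1 FPKM in wild-type 2-cell embryos alone, at 1.07 FPKM, and the same limit holds for it. Ccne1, cyclin E1, was at 0.311 and 0.558 FPKM in 2-cell embryos labelled Btg4-/- and at 176 and 222 FPKM in wild type. For Gja1, P4hb (0.983) and Nnat (0.975) were among them.

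A further 28 granulosa and cumulus genes served as a comparison, of which 11 were tested. By limma none was called between genotypes at GV, though 4 had an unadjusted p under 0.05. In the later stages 5 were lower at MII with the label Btg4-/-, 3 were lower in zygotes, and at the 2-cell stage 2 were higher and 3 lower. Over all genes 23.3% were lower at MII, 23.3% in zygotes and 26.4% at the 2-cell stage, so that 3 of 11 is near the background. The 5 at MII include Ptx3, which passed the filter through wild-type MII alone. Its call was thus bound by the filter, and the count of 5 cannot stand as support. At the 2-cell stage 22.6% of all genes were higher. The 2-cell counts include Nppc and Tnfaip6, whose calls were bound by the filter. Fst had 8.29 and 11.02 FPKM in GV oocytes labelled Btg4-/-, against 7.80 and 8.25 FPKM in wild type, and was at 0 in both MII libraries labelled Btg4-/-, against 0.426 and 1.12 FPKM in wild type. Hsd17b1, which converts oestrone to oestradiol, had 6.99 and 3.62 FPKM at GV, against 7.52 and 10.5 FPKM in wild type, and was listed at 0 in all 4 MII libraries. Both fell at the MII step in both genotypes. Both reached a mean of 1 FPKM at GV alone, so this fall was bound by the filter and cannot stand as support. Of the 11 tested, 2 were higher and 2 lower at that step in wild type, where 25.2% of all genes rose and 28.5% fell. Ptx3 is among the higher ones, and Fst and Hsd17b1 are the lower ones, so these counts were bound by the filter as well. With the label Btg4-/-, 2 were higher and 6 lower, where 27.3% rose and 18.1% fell. Other genes of that list were read after GV. Esr2, oestrogen receptor beta, was between 14.4 and 29.9 FPKM in all 16 libraries. Gata4, a transcription factor of somatic gonadal cells, had 5.51 and 5.69 FPKM in MII oocytes labelled Btg4-/- and 36.5 and 47.0 FPKM in wild type (limma adjusted p = 1.55e-06). The cumulus expansion gene Ptx3 was at 0 in all libraries of the Btg4 experiment but wild-type MII, at 1.38 and 0.697 FPKM. Of 11 theca and stroma genes 2 were tested, and by limma none was called between genotypes at GV (1 with an unadjusted p under 0.05). Their sum was 6.26 to 8.22 FPKM in GV oocytes labelled Btg4-/- and 4.46 to 4.80 FPKM in wild type.

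Genes of pathways that some of the members signal through were read as a comparison, and which cells held their RNA was not tested. Of 21 genes of activin, inhibin and AMH signalling, 17 were tested. At GV 1, Smad3, was lower with the label Btg4-/-. At MII 7 were lower and 1 higher, in zygotes 3 lower and 1 higher, and at the 2-cell stage 4 lower and 2 higher. In zygotes and 2-cell embryos these shares are no larger than those over all genes (23.3% and 26.4% lower), and at MII 23.3% of all genes were lower. At GV 6.46% of all genes were lower. The shares called higher over all genes were 29.1% at MII, 24.4% in zygotes and 22.6% at the 2-cell stage. Smad1, a mediator of BMP and AMH signals, had 0.571 and 0.781 FPKM in MII oocytes labelled Btg4-/- and 13.5 and 16.1 FPKM in wild type (-3.24 ± 0.27, limma adjusted p = 6.57e-07). Smad7, an inhibitor of the pathway, had 0.214 and 0.550 FPKM in 2-cell embryos labelled Btg4-/- and 21.0 and 30.02 FPKM in wild type (-4.25 ± 0.22, adjusted p = 1.31e-08). Bambi, a decoy receptor, had 0.524 and 0.0401 FPKM there, against 9.26 and 6.34 FPKM in wild type (-2.78 ± 0.26, adjusted p = 2.35e-06). By its changes between groups, Smad7 passed the filter through wild-type 2-cell embryos alone. Its call was thus bound by the filter and cannot stand as support, nor can the count of 4 that holds it. Whether Smad7 or Bambi moved with Amhr2 was not tested.

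Gap junction genes and the Kit pathway gave the same kind of comparison. Of 23 connexins, pannexins and a junction partner, 9 were tested besides Gja1, and none was called by limma between genotypes at GV (3 with an unadjusted p under 0.05). Gja4, a connexin that the oocyte itself makes to couple to its granulosa cells, had 1252 and 1027 FPKM in GV oocytes labelled Btg4-/- and 1626 and 1504 FPKM in wild type, far above Gja1. At MII Gja4 had 300 and 273 FPKM with the label Btg4-/-, against 159 and 145 FPKM in wild type (limma adjusted p = 0.00149), and 4 of the 9 genes were higher and 2 lower, where 29.1% of all genes were higher and 23.3% lower. Of 19 genes of Kit signalling, 4 were lower at GV with the label Btg4-/- and none higher, and at MII 10 were lower and 1 higher. Of all genes 6.46% were lower and 1.45% higher at GV, and 23.3% were lower and 29.1% higher at MII. The lean at GV over all genes depended on scaling. With median-of-ratios scaling 439 genes were higher and 380 lower there, against 178 and 795 in the main fit. Kit signalling genes were not counted with that scaling. Kit, the oocyte receptor for the product of Kitl, had 8.66 and 9.13 FPKM in MII oocytes labelled Btg4-/- and 71.6 and 86.9 FPKM in wild type (-3.01 ± 0.16, adjusted p = 1.19e-08). The receptor was thus read in every group of the Btg4 experiment, while the mean of its ligand was under 1 FPKM in each of them.

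The Erk experiment had 1 library a group, so its values have no replicate check and no test. Only 4 of the 10 markers reached 1 FPKM in any of its libraries, namely Inha, Gja1, Cyp19a1 and Kitl, and Inhba, Inhbb, Amh, Fshr and Foxl2 were listed at 0 in all 4. Inha had 11.3 FPKM in GV oocytes labelled Erk-/- and 3.80 FPKM in their wild type. Gja1 had 7.71 FPKM in GV oocytes labelled Erk-/- (interval 6.41 to 8.96) and 0.0309 FPKM in wild type. Those 2 genes were thus higher in the Erk-/- library at GV, and at MII they were at 0.0698 and 0 FPKM with the label Erk-/- and at 0 in wild type. Amhr2 had 0.711 FPKM in MII oocytes labelled Erk-/- and 0 in their wild type, under the 1 FPKM limit. Cyp19a1 was listed at 0 in GV oocytes labelled Erk-/- and at 15.5 FPKM in wild type, where the interval ran from 13.2 to 16.9. At MII it had 10.8 FPKM in oocytes labelled Erk-/- and 21.8 FPKM in wild type. Kitl was listed at 0 in GV oocytes labelled Erk-/- and at 2.75 FPKM in wild type, and at MII it had 1.61 FPKM with the label Erk-/- and 0 in wild type.

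The 4 members that reached 1 FPKM were counted past a 2-fold difference on the log2(FPKM + 1) scale. In GV oocytes labelled Erk-/- 2 were higher and 2 lower than in wild type, where 18.7% of 11404 genes were higher and 23.5% lower. Gja1 reached 1 FPKM in the Erk-/- GV library alone, so its differences from other libraries were bound by that limit. Counts among so few genes cannot stand as support. At MII 1 was higher, Kitl, and none lower, where 30.7% were higher and 8.08% lower. With a pseudocount of 0.1 or with median-of-ratios scaling, Cyp19a1 was also lower there. Between MII and GV oocytes labelled Erk-/-, 2 members were higher and 2 lower, where 23.9% of genes were higher and 33.4% lower. In the wild type of that experiment none was higher and 2 were lower, where 20.4% were higher and 46.9% lower, and Cyp19a1 also passed 2-fold there with median-of-ratios scaling. In wild type, Cyp19a1 was read at both GV and MII in both experiments, while GV Inhba was at 0 in the Erk experiment and 11.9 and 16.02 FPKM in the Btg4 experiment. The 2 experiments were not fitted together, and what set them apart was not tested.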

How the data were processed

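RNA of 60 pooled oocytes or embryos per sample was purified as mRNA, made into libraries with an NEB kit and sequenced in pairs, per the labels' protocols. Per the submitters' processing notes, CASAVA 1.8, TopHat, Cufflinks and mm9 were used; their other versions, the annotation and counting options: not given in the sources used here. The deposited values are FPKM per gene with the authors' confidence intervals. A level from purified mRNA may follow tail length as well as amount. The members were looked up by symbol. Genes with a mean of at least 1 FPKM in at least 1 of 8 groups (12311) were tested with limma 3.58.1 (R 4.3.3) on the log2(FPKM + 1) scale, in a group-means model over the 16 Btg4 libraries (8 residual degrees of freedom, variance trend) with Benjamini-Hochberg adjustment in each of 13 contrasts, at 0.05. The method was tested on simulated data. Depth was estimated from the intervals, taken as 4 standard deviations wide, with GENCODE M21 lengths. Alternatives were another pseudocount, other filters and scalings, no trend, a replicate block, a fit per stage and leaving out each library. The members, the lists and the tests were chosen with earlier results of these data known. Outside the members, genes were named where a group mean reached 5 FPKM or the gene was called, at most 4 per list and comparison by size of change. Same-numbered libraries did not deviate together (r of -0.0148 to 0.126 over 28 pairs of groups), so numbers were not taken as pairs. Of the genes most like Gja1, 1 is not reported here.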

Additional observations from a re-analysis of the deposited data

Results flagged for a closer look

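The steps between stages differed between genotypes by a test of the difference itself (limma, adjusted over all genes tested) for 5 combinations of member and step, each given as the step with the label Btg4-/- minus the step in wild type on the log2(FPKM + 1) scale. From GV to MII the difference was -1.75 for Inhba and -1.47 for Cyp19a1; with Inhba at or near 0 at MII in both genotypes, its value largely repeats the GV difference. From zygote to 2-cell it was -3.65 for Amhr2, -2.61 for Gja1 and 2.47 for Cyp19a1. Groups of 2 libraries are too small for a check of single outlying samples.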

How the results depend on the processing

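No called member result changed direction in any alternative run. Of 32 called results, 23 kept the call in every alternative that tested the gene and 9 lost it in at least 1. Among the 9, 1 was lost with a pseudocount of 0.1 alone, the difference of the MII step for Inhba (adjusted p = 0.084). The main counts of calls among the members were 7 between genotypes, 11 over wild-type steps, 9 over steps with the label Btg4-/- and 5 for differences of steps. With a filter at 5 FPKM they were 4, 7, 4 and 3, since fewer members were tested. Leaving out 1 library at a time gave 6 to 8, 10 to 13, 8 to 9 and 4 to 6. With a replicate block the counts were 7, 11, 9 and 5, and the block changed no count. Without a filter the 2-cell difference of Cyp19a1 had an adjusted p of 0.0528, and 0.198 where the stage was fitted alone. In the Erk experiment 11 differences passed 2-fold, 12 with a pseudocount of 0.1 and 13 with median-of-ratios scaling. Levels under about 1 FPKM rest on few fragments at this depth.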
